A study of Rattus norvegicus with 8 samples.

Results

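The tissue inhibitors of metalloproteinases (TIMPs), the aggrecan-cleaving ADAMTS proteases and the plasminogen activators were followed in rat periodontal ligament, the connective tissue that holds a tooth root in its bony socket. The genes are Timp1, Timp2, Timp3, Timp4, Adamts1, Adamts4, Adamts5, Plau and Plat, 9 of the 17337 genes in the count table; they were chosen by name and function, and all 9 passed the filter on low counts and were tested. Ligament of the cervical region was cut out by laser micro-dissection from untreated, normally grown rats (Rattus norvegicus) at postnatal day 28 (P28, 4 libraries) and postnatal day 18 (P18, 4 libraries). The series asks what changes when the teeth come into occlusal contact, which happens between these ages, and per the labels 4 animals were taken at each age. The sources used here give no strain, sex or genetic background. Age and occlusal contact differ together between the groups, so the effect of contact and that of 10 more days of growth cannot be told apart.

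Connective tissue is remodelled by proteases that are held in check outside the cell. TIMPs bind the active site of matrix metalloproteinases, and Timp3 also blocks ADAMTS and ADAM enzymes and stays bound to the matrix. Adamts1, Adamts4 and Adamts5 cut the large hyaluronan-binding proteoglycans aggrecan and versican. Plau (urokinase) and Plat (tissue plasminogen activator) turn plasminogen into plasmin, which digests fibrin and activates some matrix metalloproteinases. Plaur, the urokinase receptor, holds Plau at the cell surface. The ligament is known for rapid collagen turnover, in which metalloproteinases and TIMPs take part.

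Library totals ran from 5252693 to 17803006 counts at P28 and from 10863769 to 26645656 counts at P18. Levels are CPM, counts relative to the size of each library. The shallowest library, P28 replicate 4, also stood apart, with a median correlation of 0.761 with the libraries of its age, where it was 0.813 to 0.822 for the other P28 libraries and 0.784 to 0.833 for the P18 libraries (log2 CPM across genes, which are not independent replicates). The ligament markers Postn and Tnmd were detected in every library, and Tnmd fell at P28 (51.1 to 133 CPM at P28 and 479 to 734 CPM at P18; log2 fold change -2.43 ± 0.29, edgeR adjusted p = 0.00608). Markers of other cells differed between libraries. The summed epithelial list (9 of its 10 genes in the table, none at 0 throughout) was 5649 CPM in P28 replicate 2, against 114 to 1189 CPM in the other P28 libraries and 32.2 to 612 CPM at P18. The summed osteoclast list (8 of 10 genes, none at 0 throughout) was 1112 to 7955 CPM at P28 and 1509 to 1782 CPM at P18. Summed osteoblast and cementoblast markers (8 of 8 genes) were 5815 to 10358 CPM at P28 and 3872 to 5928 CPM at P18, and summed ligament fibroblast markers (10 of 10 genes) were 138101 to 196293 CPM at P28 and 96150 to 137519 CPM at P18. Col1a1 and Col3a1 made up most of the mean second sum at both ages, and its members did not all move 1 way: Fmod was called higher and Tnmd lower at P28. Summed enamel organ markers (7 of 7 genes) were 5.62 to 638 CPM at P28 and 15.1 to 4858 CPM at P18. Of the 4 enamel organ genes tested, 2 were called lower at P28 and 0 higher. They were Ambn and Amtn (log2 fold change -8.51 and -10.0, edgeR adjusted p = 0.0204 and 0.0188). Of 6 tested osteoclast genes 1 was called higher (Acp5, 3.67, edgeR adjusted p = 0.0494) and 0 lower. Among the 8 osteoblast and cementoblast genes 1 was called higher and 0 lower. The part of these cell types in the results was not tested.

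None of the 9 genes passed the test over all genes between P28 and P18 (edgeR quasi-likelihood test, Benjamini-Hochberg adjusted p under 0.05), where 0.936% of the 10472 tested genes passed, 0.516% as higher and 0.42% as lower at P28. At an unadjusted p under 0.05 there were 2 of the 9, Adamts1 and Adamts4, both lower at P28; 14.5% of tested genes reached that level in either direction and 7.1% as lower. The DESeq2 Wald test called 0 of the 9, where it called 5.3% of the genes it tested, 2.52% as lower. Limma with voom and quality weights called 1 (Adamts1, lower), where it called 2.93% of genes. For 1 of the 9 (Adamts4, lower at P28) all P28 libraries were on 1 side of all P18 libraries, which held for 10.4% of tested genes, 4.91% as higher and 5.54% as lower at P28. Log2 fold changes (log2FC), P28 over P18, were above 0 for 4 of the 9 and below 0 for 5, with a median of -0.08. Over all 10472 tested genes 5267 were above 0, and the median was 0.01. In dissected tissue, fewer cells of a type and less RNA per cell cannot be told apart.

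**Figure D1:**
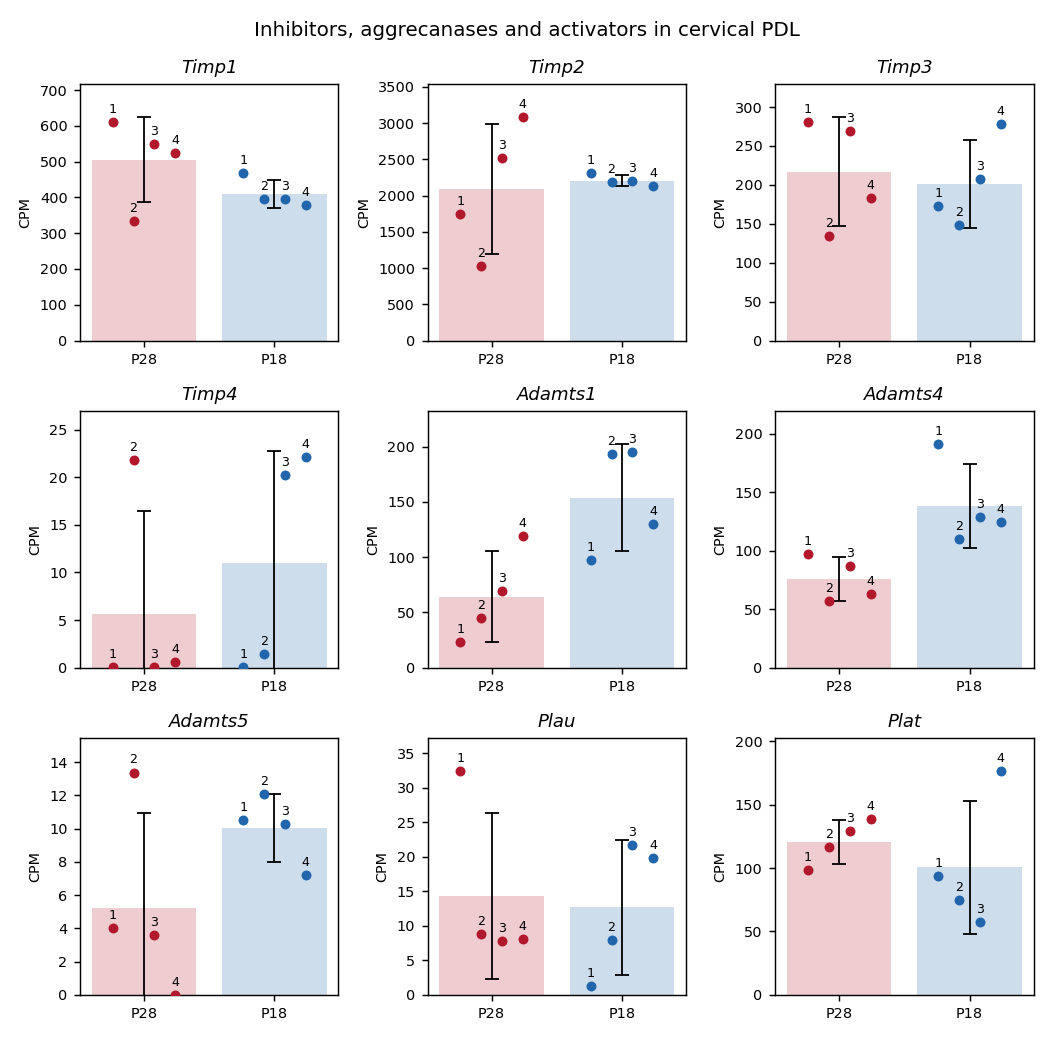
CPM of the 9 genes in each library, with P28 (red) beside P18 (blue); points are libraries marked with their replicate number, bars are means and lines are SD (n = 4 per age), cut at 0 where they would go below it. The ages overlap in every panel except that of Adamts4, where the P28 libraries lie between 56.9 and 96.9 CPM and the P18 libraries between 110 and 191 CPM.

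All 3 aggrecanases had a log2FC below 0, and none passed the test. Adamts4, which cleaves aggrecan and versican, had 96.9, 56.9, 86.7 and 62.8 CPM in P28 replicates 1 to 4, against 191, 110, 128 and 124 CPM in P18 replicates 1 to 4. Every P28 library lay below every P18 library. The means were 75.8 ± 19.0 CPM at P28 and 138 ± 35.8 CPM at P18 (SD, n = 4 libraries of each age). Adamts4 had a log2FC of -0.87 ± 0.26 (SE; 95% interval -1.43 to -0.30; edgeR adjusted p = 0.140). In the 8 fits that left out 1 library the adjusted p was 0.160 to 0.254 (edgeR).

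Adamts1, a protease of versican and aggrecan with anti-angiogenic activity, had 23.4, 45.3, 69.1 and 119 CPM in P28 replicates 1 to 4, against 97.3, 193, 195 and 130 CPM in P18 replicates 1 to 4. P28 replicate 4 alone reached into the P18 range, and P18 replicate 1 was the lowest of its age. The means were 64.2 ± 41 CPM at P28 and 154 ± 48.3 CPM at P18, a log2FC of -1.27 ± 0.42 (95% interval -2.19 to -0.34; edgeR adjusted p = 0.179). Without P28 replicate 4 it passed (-1.74 ± 0.39, edgeR, adjusted p = 0.0497), as it did with voom and quality weights (-1.90, adjusted p = 0.0244). Those fits called 215 of 10821 and 307 of 10472 tested genes, where the main fit called 98 of 10472. In the other 7 fits that left out 1 library the adjusted p was 0.159 to 0.374.

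Adamts5, the main aggrecanase of mouse cartilage, was scarce. It had 68, 128, 44 and 0 counts in P28 replicates 1 to 4, which are 3.99, 13.4, 3.59 and 0 CPM, against 10.5, 12.1, 10.3 and 7.18 CPM in P18 replicates 1 to 4. The P28 values spanned those at P18, from the library with no count to the highest of all 8. The count of 0 in P28 replicate 4 allows up to 0.624 CPM, for counting error only. Its log2FC of -0.93 ± 1.14 had a 95% interval of -3.40 to 1.55 (edgeR adjusted p = 0.764). Adamts5 is the gene next to Adamts1 in the RefSeq gene table (assembly GRCr8), with 0 genes between them.

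The upstream sequences of Adamts1 and Adamts4, the aggrecanase pair with the lowest p, are shown. Neither gene passed the test, and Adamts5 also had a log2FC below 0. A link between these sequences and the levels was not tested. Each run is the 250 bases before the annotated start of the gene, from RefSeq on GRCr8, read 5′ to 3′ on the strand of the gene. Capitals mark matches to the TATA box (letters TATAAA), the GC box (letters GGGCGG) or the AP-1 site (letters TGANTCA), searched on both strands; no 2 matches overlap. Adamts1 lies at chr11:38427385-38427634 (minus strand) and Adamts4 at chr13:86202761-86203010 (plus strand).
Adamts1: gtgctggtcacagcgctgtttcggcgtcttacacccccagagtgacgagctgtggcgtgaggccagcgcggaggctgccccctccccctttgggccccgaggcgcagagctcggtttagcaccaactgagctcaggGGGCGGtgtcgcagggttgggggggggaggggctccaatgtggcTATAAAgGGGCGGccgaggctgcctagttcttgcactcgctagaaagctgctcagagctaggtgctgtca
Adamts4: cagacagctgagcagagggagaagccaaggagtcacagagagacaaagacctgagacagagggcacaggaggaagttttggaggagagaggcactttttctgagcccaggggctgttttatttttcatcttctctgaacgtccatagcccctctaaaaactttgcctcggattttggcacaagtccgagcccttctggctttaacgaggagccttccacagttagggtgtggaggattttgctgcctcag
The Adamts1 window holds 1 TATA box and 2 GC boxes, and the Adamts4 window holds 0 of the 3 motifs. Among 33469 promoter windows of this length, 12.9% hold the TATA box letters, 30.5% those of the GC box and 6.34% those of the AP-1 site. Of the 9 genes, 7 had an entry in the promoter table; Adamts5 and Plat had none.

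Among the inhibitors, Timp1, a secreted TIMP induced by growth factors and cytokines, had 612, 335, 550 and 524 CPM in P28 replicates 1 to 4, against 469, 396, 395 and 379 CPM in P18 replicates 1 to 4. The 3 P28 libraries other than replicate 2 lay above every P18 library, and replicate 2 lay below them all. Timp1 had a log2FC of 0.30 ± 0.21 (95% interval -0.14 to 0.75; edgeR adjusted p = 0.545), and 0.46 ± 0.17 without P28 replicate 2 (adjusted p = 0.211).

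Timp2, which inhibits metalloproteinases and also helps Mmp14 to activate Mmp2, had 1752, 1029, 2516 and 3084 CPM in P28 replicates 1 to 4, against 2319, 2187, 2199 and 2128 CPM in P18 replicates 1 to 4. The P18 libraries lay close together, and the P28 libraries lay on both sides of them. The SD of log2 CPM was 0.69 at P28 and 0.05 at P18, where the medians over all tested genes were 0.69 and 0.53; 99.5% of tested genes had a larger SD at P18 than Timp2. The log2FC was -0.08 ± 0.28 (95% interval -0.68 to 0.53; edgeR adjusted p = 0.935), and its sign turned without P28 replicate 2 (0.15 ± 0.19).

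Timp3, the matrix-bound TIMP that blocks aggrecanases, had 281, 134, 269 and 184 CPM in P28 replicates 1 to 4, against 172, 148, 207 and 278 CPM in P18 replicates 1 to 4. The ages overlapped over nearly their whole range. For Timp3 the log2FC was 0.11 ± 0.27 (95% interval -0.49 to 0.70; edgeR adjusted p = 0.902). Timp1, Timp2 and Timp3 were each lowest, of all 8 libraries, in P28 replicate 2. That library held the highest epithelial marker sum, and the part of those cells in the low TIMP values was not tested. Without it the log2FC of Timp3 was 0.28.

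Timp4, a TIMP of restricted tissue range best known from heart, differed widely between libraries of 1 age. It had 1, 209, 1 and 3 counts in P28 replicates 1 to 4, against 1, 39, 474 and 434 counts in P18 replicates 1 to 4, or 0.06, 21.8, 0.08 and 0.62 CPM at P28 and 0.09, 1.40, 20.2 and 22.1 CPM at P18. High libraries occurred at both ages. Timp4 had a log2FC of -0.95 ± 1.72 (95% interval -4.70 to 2.80; edgeR adjusted p = 0.852), and -5.61 ± 2.00 without P28 replicate 2 (adjusted p = 0.192), where 1 to 3 counts were left in each P28 library.

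TIMP genes sit inside synapsin genes, which code for proteins of synaptic vesicles. In the RefSeq table Timp1 lies within Syn1, Timp3 within Syn3 and Timp4 within Syn2, and Cep295nl lies within Timp2. No source used here gives the strand setting of the counting, so reads from such partners could not be told apart where their exons overlap. Syn1 had 98, 10, 0 and 0 counts in P28 replicates 1 to 4 and 11, 388, 76 and 114 counts in P18 replicates 1 to 4, where Timp1 had 2517 to 10418 counts at P28 and 5185 to 10990 counts at P18. Syn2 had at most 3 counts at P28 and 8 at P18; Syn3 was at 0 in every library except P18 replicate 3 (112 counts), and Cep295nl in every library except P28 replicate 1 (13 counts). The Timp4 counts of 209 (P28 replicate 2), 474 (P18 replicate 3) and 434 (P18 replicate 4) came from libraries with 3, 0 and 0 counts of Syn2.

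The plasminogen activators did not pass the test in either direction. Plat had 98.5, 116, 129 and 138 CPM in P28 replicates 1 to 4, against 93.9, 75.1, 57.8 and 176 CPM in P18 replicates 1 to 4. The P28 libraries lay close together and inside the wider P18 range, above 3 of its 4 libraries. The SD of log2 CPM was 0.21 at P28, where 93.4% of tested genes (not matched for expression level) had a larger one, and 0.69 at P18. The means were 121 ± 17.3 CPM at P28 and 101 ± 52.4 CPM at P18, a log2FC of 0.26 ± 0.32 (95% interval -0.43 to 0.95; edgeR adjusted p = 0.764). Without P18 replicate 4 the ages did not overlap, as for 13.2% of tested genes there, and the log2FC was 0.67 ± 0.27 (adjusted p = 0.338). The summed endothelial list (10 of 10 genes in the table, none at 0 throughout), markers of a cell type known to make Plat, was 1278 to 2088 CPM at P28 and 1001 to 1470 CPM at P18, and its part in the Plat values was not tested.

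Plau had 32.4, 8.88, 7.83 and 8.11 CPM in P28 replicates 1 to 4, against 1.27, 7.96, 21.7 and 19.8 CPM in P18 replicates 1 to 4. P28 replicate 1 held the highest value and P18 replicate 1 the lowest, and the other 6 libraries overlapped. The log2FC was 0.17 ± 0.86 (95% interval -1.70 to 2.05; edgeR adjusted p = 0.953), and -0.61 ± 0.95 without P28 replicate 1. For Plau, Timp4 and Adamts5 the intervals include changes of more than 2-fold either way.

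**Figure D2:**
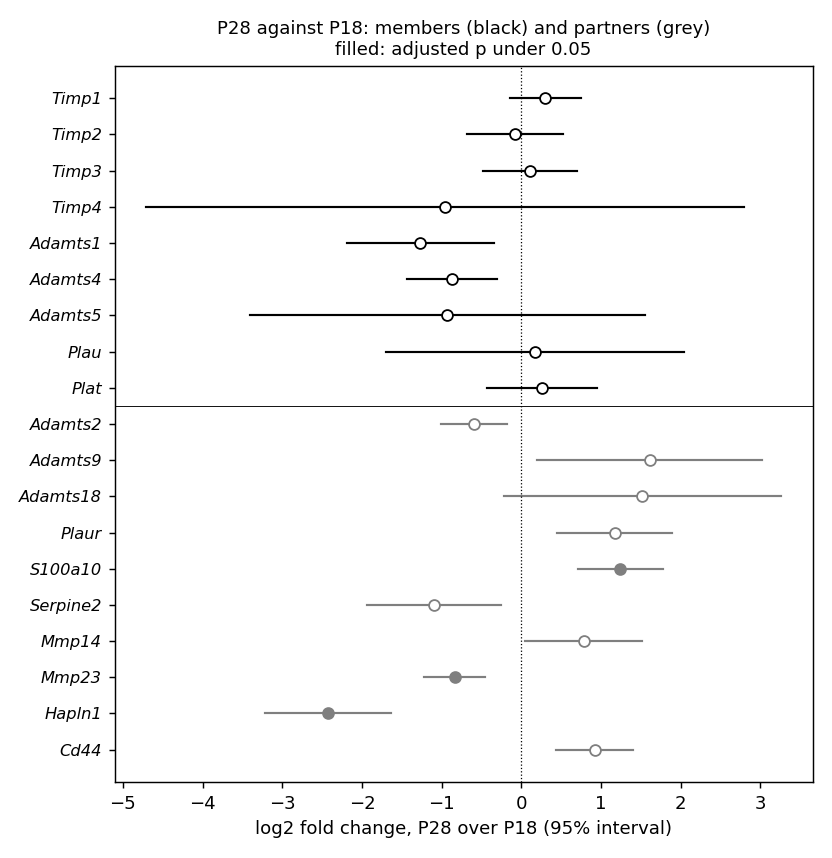
Log2FC, P28 over P18, with its 95% interval from the edgeR fit, for the 9 genes (black, upper part) and for partner genes (grey, lower part); filled points passed an adjusted p of 0.05. None of the 9 is filled; S100a10 is filled to the right of 0, and Mmp23 and Hapln1 are filled to its left.

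Among the partners of the activators, S100a10 was called higher at P28. Of 20 listed partners of the plasminogen system 14 were tested; 1 was called higher at P28 and 0 lower, with 11 log2FC values above 0, 3 below and a median of 0.36. The called gene, S100a10, encodes the p11 subunit of a complex with annexin A2 that binds plasminogen and Plat at the cell surface. It had 1270, 1101, 1946 and 987 CPM in P28 replicates 1 to 4, against 676, 507, 421 and 643 CPM in P18 replicates 1 to 4. It rose by a log2FC of 1.24 ± 0.24 (edgeR adjusted p = 0.0401), with no overlap between ages. Of 8 fits without 1 library each, 6 ended the call: those without P28 replicates 1 or 3 or any 1 of the P18 replicates (adjusted p up to 0.160). Its binding partner Anxa2 had 867 ± 106 CPM at P28 and 829 ± 174 CPM at P18 (log2FC 0.06 ± 0.19, edgeR adjusted p = 0.922).

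Plaur had 57.6, 62.7, 65.7 and 88.4 CPM in P28 replicates 1 to 4, against 19.1, 40.5, 24.3 and 37.9 CPM in P18 replicates 1 to 4. All P28 libraries lay above all P18 libraries, as for S100a10. Its log2FC was 1.17 ± 0.33 (edgeR adjusted p = 0.118). The DESeq2 Wald test called it (adjusted p = 0.0294), where that test called 5.3% of the genes it tested. Voom with quality weights (adjusted p = 0.0870) and edgeR with a replicate block by subject number (0.170) did not. In the 8 fits that left out 1 library the adjusted p was 0.133 to 0.287 (edgeR).

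Serpine2 (protease nexin 1), which inhibits thrombin and Plau, lay on the other side, at 141 ± 84.9 CPM at P28 and 303 ± 83.9 CPM at P18 (log2FC -1.10 ± 0.39, edgeR adjusted p = 0.202). The plasminogen gene itself, Plg, which the liver makes for the circulation, was among the 6 partners that did not pass the filter. Macrophages express Plaur. The summed macrophage list (10 of 10 genes in the table, none at 0 throughout) was 591 to 2196 CPM at P28 and 711 to 1183 CPM at P18, and its part in the Plaur values was not tested.

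**Figure D3:**
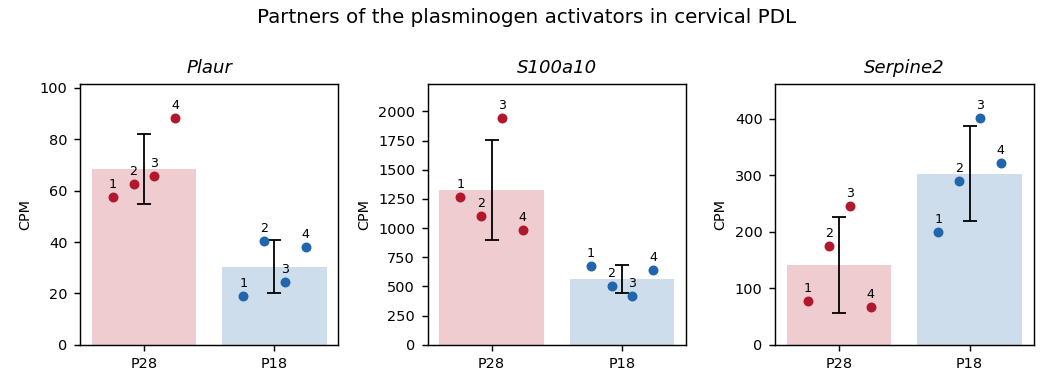
CPM of Plaur, S100a10 and Serpine2 in each library, with P28 (red) beside P18 (blue); points are libraries marked with their replicate number, bars are means and lines are SD (n = 4 per age). The ages do not overlap for Plaur and S100a10, both higher at P28, and overlap for Serpine2.

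Ratios of 2 genes within a library do not depend on the scaling between libraries, and their difference between ages does not depend on gene length. The 6 ratios given here overlapped between ages; p-values are 2-sided, adjusted over the 8 ratios tested, and the smallest that 4 against 4 libraries allow is an exact p of 0.0286. The log2 ratio of Timp1 to Timp2 was -1.52, -1.62, -2.19 and -2.56 in P28 replicates 1 to 4, against -2.31, -2.47, -2.48 and -2.49 in P18 replicates 1 to 4. P28 replicate 4 lay below all P18 libraries and the other P28 libraries above them. The log2 ratio of Plau to Plat was -1.60, -3.69, -4.02 and -4.07 in P28 replicates 1 to 4, against -6.08, -3.22, -1.41 and -3.15 in P18 replicates 1 to 4, where the P18 libraries reached both higher and lower than those at P28.

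The Plau to Plat ratio differed by 0.11 (exact permutation p = 1, adjusted p = 1), that of Timp1 to Timp2 by 0.46 (exact p = 0.143, adjusted p = 0.381), that of Timp3 to Timp2 by 0.27 and that of Timp1 to Timp3 by 0.19 (log2, P28 minus P18; exact p = 0.543 and 0.514, both adjusted p = 0.724). The ratios of Adamts1 and Adamts4 to Adamts5 differed by 0.70 and 1.27 (exact p = 0.914 and 0.543, adjusted p = 1 and 0.724). In P28 replicate 4, where Adamts5 had no count, these depend on the added prior count. None of these ratios had an exact p under 0.05 before adjustment. After adjustment over 8 ratios, a single ratio at the smallest possible exact p could not have passed 0.05 by itself. These tests thus showed no difference in response among the TIMPs, among the aggrecanases or between Plau and Plat. They had little power to show one.

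**Figure D4:**
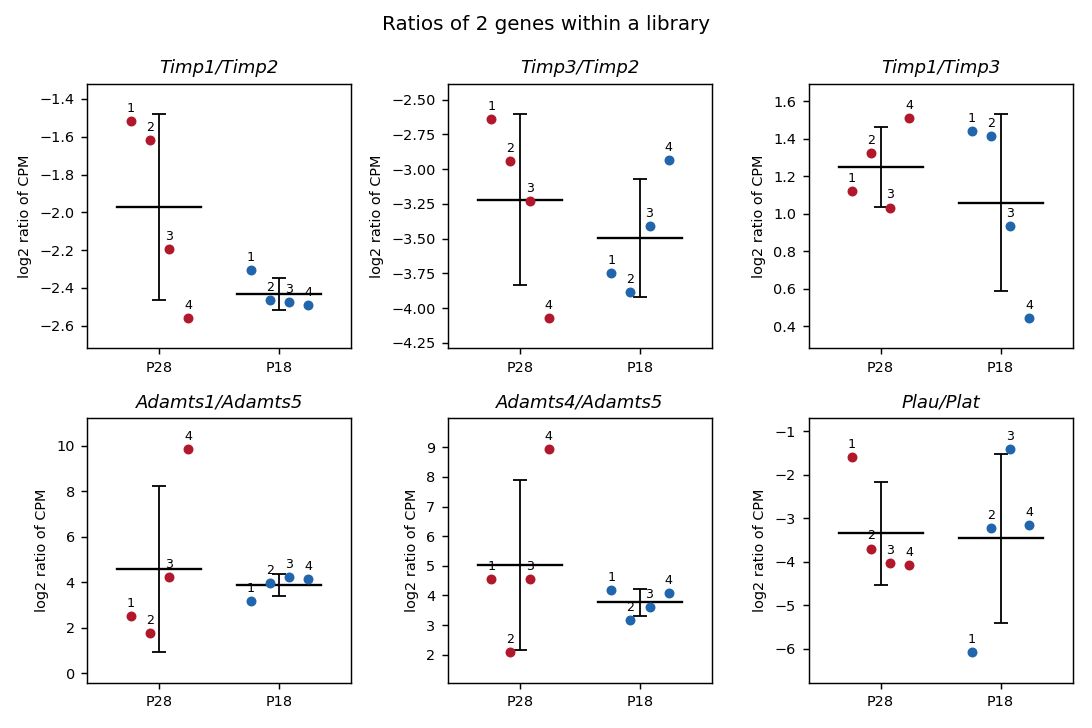
Log2 ratio of CPM of 2 genes in the same library for 6 pairs, with P28 (red) left of P18 (blue); points are libraries marked with their replicate number, horizontal lines are means and vertical lines SD (n = 4 per age). The ages overlap in every panel; the P28 means are -1.97 for Timp1/Timp2 and -3.35 for Plau/Plat, and the P18 means are -2.43 and -3.46.

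The wider ADAMTS family held no call. Of 16 other ADAMTS proteases 9 were tested, and 0 were called in either direction. Of their log2FC values 8 were above 0 and 1 below, with a median of 1.29. Over all 10472 tested genes 5267 were above 0. Some of the 9 values were poorly determined, such as Adamts3 (2.11 ± 1.45) and Adamts19 (1.58 ± 1.78), whose 95% intervals include 0. Adamts2, the procollagen N-proteinase, was the one of the 9 below 0. It had 227, 149, 174 and 210 CPM in P28 replicates 1 to 4, against 286, 311, 294 and 259 CPM in P18 replicates 1 to 4, with no overlap (log2FC -0.60 ± 0.19, edgeR adjusted p = 0.161). Adamts9, a versican-cleaving protease, had 20.2 ± 2.73 CPM at P28 and 6.61 ± 3.55 CPM at P18, also with no overlap (1.61 ± 0.65, edgeR adjusted p = 0.273). In this list 2 genes lay higher and 1 lower at P28 without overlap, and over all tested genes the share without overlap was 10.4%. Adamts18 had a log2FC of 1.52 ± 0.80 (edgeR adjusted p = 0.419). The 3 tested ADAMTS-like genes (of 7 listed), which lack the protease domain, were not called. Adamtsl4, Adamtsl3 and Adamtsl5 had log2FC values of 1.23 ± 0.48, 0.48 ± 0.69 and 0.28 ± 1.01 (edgeR adjusted p = 0.254, 0.807 and 0.935), the last negative with voom, with a replicate block or without P28 replicate 4.

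A further list joined aggrecanase substrates with other matrix genes, among them link proteins, a hyaluronan receptor (Cd44) and a hyaluronan synthase (Has2). Of its 8 tested genes (of 11 listed) 0 were called higher and 1 lower, with a median log2FC of 0.45, which is not a value for substrates alone. The gene that fell was Hapln1, the link protein that fixes aggrecan and versican to hyaluronan. It had 12.8, 6.69, 12.2 and 15.4 CPM in P28 replicates 1 to 4, against 58.8, 68.3, 60.0 and 65.5 CPM in P18 replicates 1 to 4. The log2FC was -2.42 ± 0.37 (edgeR adjusted p = 0.0157), and the call ended without P28 replicate 1 or P18 replicates 2 or 4 (adjusted p up to 0.0610). The proteoglycans themselves were not called. Acan (aggrecan) had 128 ± 78.5 CPM at P28 and 71.4 ± 62.2 CPM at P18, and Vcan (versican) had 75.9 ± 26.1 CPM at P28 and 54.0 ± 17.0 CPM at P18 (edgeR adjusted p = 0.523 and 0.542). Cd44, a hyaluronan receptor, had 131 ± 22.8 CPM at P28 and 69.2 ± 10.2 CPM at P18, with no overlap (log2FC 0.92 ± 0.22, edgeR adjusted p = 0.0773). Bgn and Dcn, small proteoglycans of collagen fibrils, had log2FC values of 0.49 ± 0.25 and 0.41 ± 0.23 (edgeR adjusted p = 0.409 and 0.456).

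Of 16 listed metalloproteinases and other partners of TIMPs 14 were tested, 0 were called higher and 1 lower (Mmp23, log2FC -0.84 ± 0.18, edgeR adjusted p = 0.0494), and the median was 0.21. That call held in 1 of 8 fits without 1 library, the one without P28 replicate 4 (edgeR adjusted p = 0.0384), and was otherwise at 0.0612 to 0.172. Mmp2 and Mmp14, the gelatinase and the membrane metalloproteinase that Timp2 links, had log2FC values of 0.27 ± 0.25 and 0.78 ± 0.34 (edgeR adjusted p = 0.670 and 0.308). Lrp1, the receptor that takes up Timp3, Adamts5 and inhibited Plau or Plat, had 558 ± 202 CPM at P28 and 301 ± 224 CPM at P18 (adjusted p = 0.405). Mmp9 had 204 ± 221 CPM at P28 and 9.63 ± 11.4 CPM at P18 (log2FC 4.40 ± 1.2, edgeR adjusted p = 0.107) and belongs to the osteoclast list whose sums are given above; the part of those cells in its values was not tested.

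By the smallest root mean square difference between profiles centred within each gene, over 8 libraries and 7643 or 7644 candidate genes, the profile nearest to that of Timp1 was that of Krtcap2 (0.09 on the log2 scale, where the median candidate was at 0.62). Nearest to Timp2 was Rnase4 (0.14), to Timp3 Terf2ip (0.21), to Plat Zbtb22 (0.15), to Adamts4 Ptk7 (0.19) and to Adamts1 Nfia (0.32). Those nearest to Adamts5, Plau and Timp4 lay further off, at 0.42 (Alg12), 0.46 (Tbccd1) and 1.78 (Pitpnm1). No other one of the 9 genes was the nearest profile of any of them. Timp4 and Adamts5 (mean log2 CPM 0.82 and 2.25) could not be, since candidates needed a mean of at least 3.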

How the data were processed

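RNA of 8 cervical periodontal ligament libraries (4 per age) was sequenced. Per the labels, libraries were made with a SMARTer Ultra Low input RNA kit. The authors deposited raw counts per gene symbol. STAR 2.5.3a, HTSeq 0.9.1, edgeR 3.16.5 and build rn6 are named in the submitters' processing notes, without their roles; no source used here gives the annotation or strand setting. The other 40 of 48 columns and a table of normalized counts were not used. Columns were matched to ages by the sample titles.

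Counts were tested in R 4.3.3 with the 2-sided quasi-likelihood test of edgeR 4.0.16 (glmQLFTest, TMM scaling, age as the only term, filter by age with a minimum count of 10), with Benjamini-Hochberg adjustment over the 10472 of 17337 genes kept. SE is the size of the log2 fold change over the root of F. CPM used TMM-scaled totals of the tested genes; for log2 CPM, 2 was added as prior count. The limit for a count of 0 is 3 counts, and covers counting error only, since PCR copies are not separate molecules. Ratios were compared with exact permutation tests.

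Alternatives tried were the DESeq2 1.42.0 Wald test, limma 3.58.1 voom with quality weights, scaling by DESeq2 size factors or upper quartiles, a looser and a stricter filter, a replicate block by subject number and leaving out each library. List symbols (166 of 182 matched) were looked up in a RefSeq gene table (GRCr8). The genes, lists and tests were chosen with earlier results of these data known. Genes named were the 9, the called members of each list with up to 3 others of lowest p, and the gene of nearest profile (mean log2 CPM of at least 3). Anxa2, Acan, Vcan, Mmp2 and Plg were named for their roles after values were seen. Adamts3 and Adamts19, as examples of poorly determined values, and single cell type markers were also named after values were seen. The labels count 4 animals per age and give the same subject numbers at both ages. Libraries of the 2 ages were taken as different animals. Some results of the same tests are not reported here.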

Additional observations from a re-analysis of the deposited data

Results flagged for a closer look

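In groups of 4 libraries, 1 library was set apart from the others of its age by more than the 95% limit of Dixon's ratio in 3 of 72 groups examined; chance flags about 1 in 20. Plau stood at 32.4 CPM in P28 replicate 1, with the other P28 libraries at 7.83 to 8.88 CPM. The log2 ratio of Plau to Plat followed it, at -1.60 in that library and -4.07 to -3.69 in the other P28 libraries. The log2 ratio of Timp1 to Timp2 was -2.31 in P18 replicate 1 and -2.49 to -2.47 in the other P18 libraries, a small distance in a group that lay close together.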

How the results depend on the processing

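Of the 9 genes, 0 were called in 6 of 7 alternatives other than leaving out a library and 1 (Adamts1) with voom; leaving out 1 library gave 0 to 1. Over all genes, 98 calls became 552 with the DESeq2 Wald test, 307 with voom and 26 with the replicate block, and 9 (without P18 replicate 2) to 215 (without P28 replicate 4) leaving out 1 library; DESeq2 size factors, upper-quartile scaling and both other filters gave 92 to 115. The number of the 9 genes whose ages did not overlap was 1 to 3 leaving out 1 library; without P28 replicate 2 they were Timp1, Adamts4 and Adamts5, and the share over all tested genes was then 16.8%, against 10.4% with all libraries (13.2% to 18.3% leaving out 1 library). Same-numbered subjects did not deviate together (correlations -0.02 to 0.00), so the block pairs samples by number only; the cause of each change was not tested. Leaving out 1 library, log2 fold changes changed sign for Timp2 (-0.32 to 0.15), Timp3 (-0.041 to 0.30), Plau (-0.61 to 0.56) and Adamtsl5 (-0.30 to 0.65; -0.51 with voom and -0.17 with the block). So did the log2 ratios Timp1/Timp3 (-0.017 to 0.32), Adamts1/Adamts5 (-1.06 to 1.64), Adamts4/Adamts5 (-0.038 to 2.25) and Plau/Plat (-0.76 to 0.80). With the block the calls of S100a10, Mmp23 and Hapln1 ended (adjusted p = 0.117, 0.118 and 0.0633), and that of Mmp23 also with DESeq2 size factors (0.0539) and both other filters (0.0535 and 0.0506). Timp4 and Adamts5 were each at or below 3 counts in at least 1 library.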
